A study of Mus musculus with 14 samples.

Results

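The 10 genes followed here are ones that vascular endothelial cells are known for, Esam, Cdh5, Cldn5, Pecam1, Flt1, Kdr, Tek, Tie1, Egfl7 and Ushbp1, read in single cells sorted from mice that had been injected with melanoma cells. They were chosen by name, as 10 of the 21138 genes counted, and all 10 had counts in at least 1 cell. Endothelial cells line blood vessels and are held together by adhesion proteins at their borders, among them VE-cadherin, claudin-5, PECAM-1 and ESAM. They respond to VEGF through the receptors of Flt1 and Kdr and to angiopoietins through the receptor of Tek, with Tie1 as its partner. Several of these genes are also used outside endothelium: Pecam1 by leukocytes and platelets, Esam by platelets and megakaryocytes, and Flt1 by monocytes and macrophages.

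RNA was read with Smart-seq2, which sequences whole transcripts of each cell on its own, in 648 cells of 14 samples. In 9 samples, female C57BL/6J mice of 6 to 8 weeks had been injected with fluorescent B16F10 melanoma cells, whose line also comes from C57BL/6 mice, and received no drug. Cells of their lung and blood were sorted into 3 classes, 450 DP cells (177 from lung and 273 from blood, 9 samples), 43 CTC (5 samples) and 46 WBC (6 samples). The title of the series speaks of candidate tumor-leukocyte hybrid cells, and the labels do not spell out DP. The controls, with 1 sample each, were cultured B16F10 cells (22 cells) and 4 samples that the labels give to naive female C57BL/6J mice of 6 to 8 weeks: CDP (18 cells), Duplike (24), PltLike (24) and WBC, called naive WBC here (21). No sorted class is labelled endothelial, and the labels do not say whether a sample is 1 animal, so p-values measure the spread between samples, which may be technical. The labels make each sample its own batch, so for the controls batch and kind of cell cannot be told apart. The median cell held 15.8 Mcounts (megacounts), with a range of 0.0205 to 104 Mcounts, and medians were 15.8 Mcounts in DP, 22.1 in CTC, 4.93 in WBC and 1.05 in naive WBC.

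DP cells were not of 1 kind. By whether the summed CPM (counts scaled to a cell total of 1000000) of 10 melanocyte genes exceeded those of 10 pan-leukocyte genes, 281 DP cells were tumor-high and 169 tumor-low, and 47 lay within 4-fold of that limit. All CTC were tumor-high, as were 4 of the 46 WBC. All cells of CDP, Duplike and PltLike were tumor-high too, although the labels give these samples to naive mice. None of the 10 endothelial genes was used for the split.

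Most of these genes came from few cells, and Egfl7 came from many. At 1 CPM or more, 4 cells of 648 had Cldn5, 6 had Tie1, 7 had Cdh5, 7 had Tek, 9 had Kdr, 13 had Ushbp1 and 15 had Esam. Pecam1 was read in 42 cells and Flt1 in 45, whereas Egfl7 was read in 260. A single cell held over 90% of the CPM summed over all cells for Cdh5 (90.8%) and Cldn5 (91.4%), and 70.5% for Esam, 69.8% for Ushbp1, 70.2% for Tek and 59.1% for Kdr. Reaching 50% of the summed CPM took 1 cell for each of these genes, 2 for Tie1, 3 for Pecam1, 4 for Flt1 and 44 for Egfl7.

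**Figure D1:**
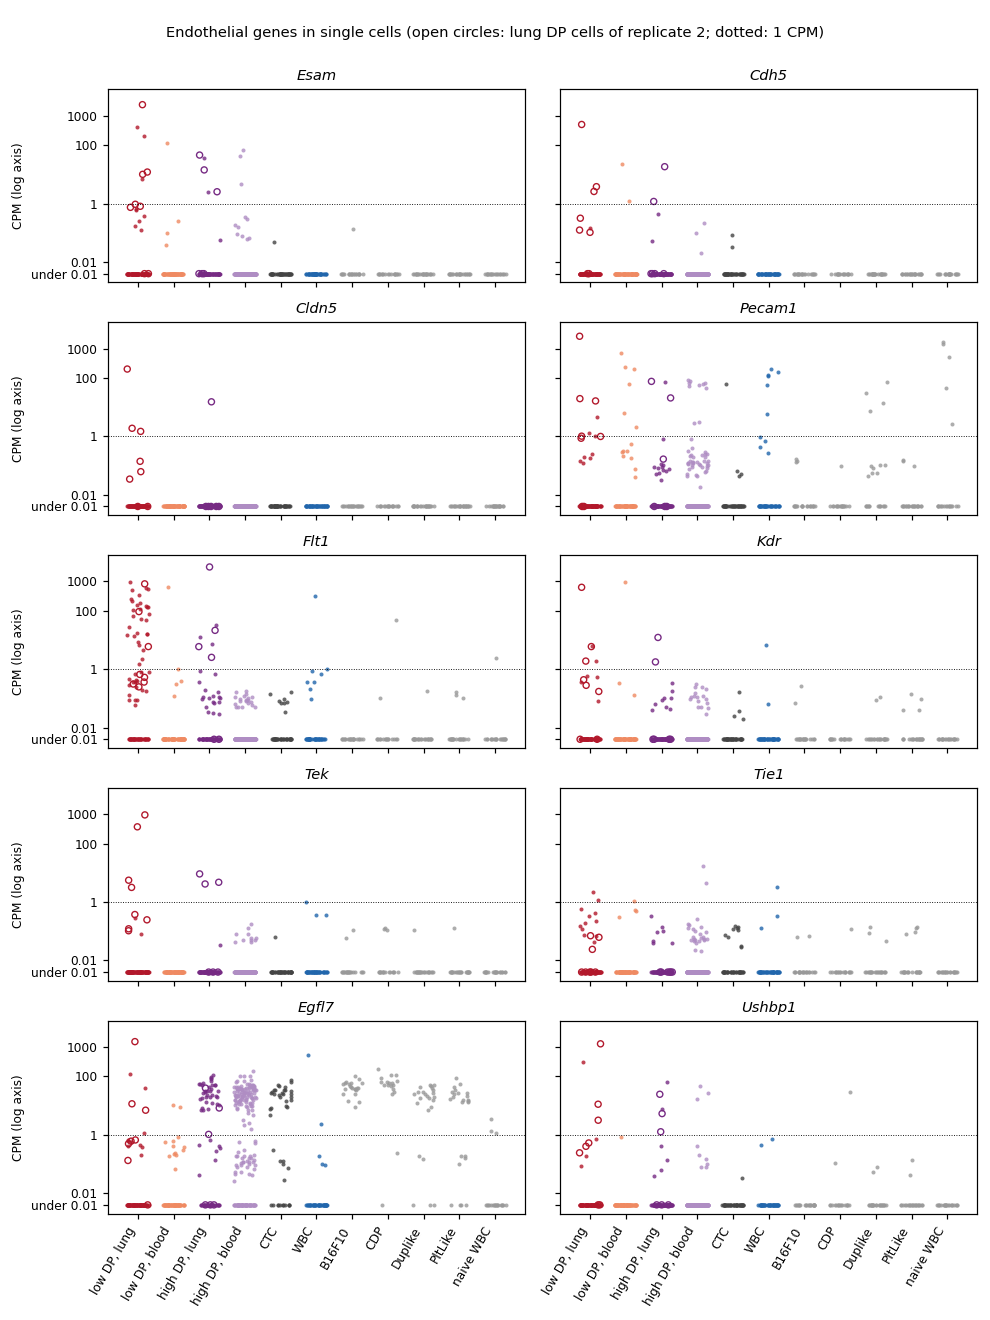
CPM of each endothelial gene in every cell (log axis, cells under 0.01 CPM drawn at the bottom), by kind of cell, where low DP and high DP are tumor-low and tumor-high DP. Open circles are the 14 lung DP cells of replicate 2, which hold the highest value for 8 of the 10 genes, and the dotted line marks 1 CPM. The clouds above that line in tumor-high DP, CTC and the tumor-type controls are seen for Egfl7 alone.

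The start regions of 3 genes with unlike patterns are shown, Cldn5 (almost all from 1 cell), Ushbp1 (few cells) and Egfl7 (many cells), as the 250 bases before the transcript start in RefSeq on GRCm38.p6. RefSeq's table matched 7 of the 10 genes, with 9 starts, 3 of them of Egfl7. The capitals mark AGGAAG or its reverse complement CTTCCT, the core letters read by ETS factors such as Erg, searched on both strands. Of 32851 such windows of all genes, 29.5% hold the motif, and so do 5 of the 9 windows here, in Ushbp1, Flt1, Tie1 and Egfl7. A match is a match of letters only. The Egfl7 window shown lies inside the longer gene model of Egfl7 given below.
Cldn5, chr16:18776597-18776846, plus strand: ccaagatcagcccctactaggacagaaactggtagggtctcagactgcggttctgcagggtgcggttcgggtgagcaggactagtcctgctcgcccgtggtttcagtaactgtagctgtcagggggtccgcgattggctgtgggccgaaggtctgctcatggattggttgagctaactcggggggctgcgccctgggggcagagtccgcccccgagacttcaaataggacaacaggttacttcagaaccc
Ushbp1, chr8:71395802-71396051, minus strand: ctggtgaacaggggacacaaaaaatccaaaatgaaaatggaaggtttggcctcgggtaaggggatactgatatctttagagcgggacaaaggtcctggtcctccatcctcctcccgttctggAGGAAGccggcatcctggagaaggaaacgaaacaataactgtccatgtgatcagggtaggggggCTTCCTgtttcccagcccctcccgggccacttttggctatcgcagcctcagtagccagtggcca
Egfl7, chr2:26580833-26581082, plus strand: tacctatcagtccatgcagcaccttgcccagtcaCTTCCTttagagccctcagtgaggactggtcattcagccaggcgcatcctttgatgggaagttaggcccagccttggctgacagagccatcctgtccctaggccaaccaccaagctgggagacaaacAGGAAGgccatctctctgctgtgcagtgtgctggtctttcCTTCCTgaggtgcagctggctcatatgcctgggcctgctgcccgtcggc
The windows hold 0, 2 and 3 matches, in the order Cldn5, Ushbp1 and Egfl7. The Egfl7 window shown is the one with the most, and the other starts of Egfl7 hold 1 and 0. Flt1 holds 2 matches, Tie1 holds 1, and Kdr and Tek hold 0. A relation between matches and the number of cells was not tested.

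The cell with the most of these genes was a lung DP cell of replicate 2 with 41.8 Mcounts and 5988 detected genes. It held 9 of the 10 at high levels: 2416 CPM of Esam, 507 of Cdh5, 201 of Cldn5, 2660 of Pecam1, 829 of Flt1, 632 of Kdr, 372 of Tek, 1537 of Egfl7 and 1294 of Ushbp1. Tie1 had 1 count there. Per kilobase of exon, Esam was the highest of the 10 in this cell (843 CPM per kb), ahead of Egfl7 (429) and Pecam1 (427), and Flt1 was the lowest of the 9 (61.4). Of 26 other endothelial markers, 19 were at 1 CPM or more, against a median of 3 over all 648 cells. They included the sialomucin gene Emcn (2775 CPM), Cd34 (2899 CPM), the fenestra diaphragm gene Plvap (2308 CPM), the lipase anchor gene Gpihbp1 (1296 CPM), the transcription factor genes Sox17 (1037 CPM) and Erg (190 CPM), and Vwf (303 CPM), the von Willebrand factor gene. The lymphatic genes Prox1 and Lyve1 were at 0 counts and 6 counts, and Sox18, Esm1 and Rasip1 had none.

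Genes of other cell types were low in that cell. The 10 melanocyte genes summed to 0.982 CPM and the 10 platelet-restricted genes to 0.0479 CPM, with 9 of these 10 at 0. Ptprc, which encodes the pan-leukocyte protein CD45, was at 1.15 CPM, while the 10 pan-leukocyte genes summed to 1114 CPM and the macrophage lysozyme gene Lyz2 was at 30.3 CPM. By the split the cell counted as tumor-low. Genes that platelets share with endothelium were high there, Itgb3 (519 CPM), the integrin beta-3 gene, and Selp (445 CPM), the P-selectin gene.

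The same 9 genes recurred at low counts in other lung DP cells of replicate 2. Of its 13 further lung DP cells, 7 had counts of at least 8 of the 9, at 15 to 43 counts of Esam, 25 to 50 of Pecam1, 11 to 35 of Egfl7 and 0 to 5 of Cldn5. Summed over the 9 genes they held 86 to 231 counts, against 436383 in the cell with the most, or 0.0197% to 0.0529% of its sum. Gene by gene, the mean count of the 7 cells was between 0.0248% (Ushbp1) and 0.0916% (Flt1) of the count in that cell. The remaining 6 lung DP cells of this sample held at most 2 counts of Esam, 1 of Ushbp1 and 2 of Pecam1, and none of Kdr, Cdh5 or Cldn5.

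How these low counts read in CPM depended on depth. Of the 7 cells, the 4 with 0.329 to 2.70 Mcounts passed 1 CPM for 8 or 9 of the genes, whereas the 3 with 28.5 to 57.9 Mcounts passed it for at most 1. All 6 cells of the series with at least 3 of the 10 genes at 1 CPM were lung DP cells of replicate 2: the cell with the most, these 4, and 1 further cell with 5 counts over 3 genes. The cause of the shared low counts was not tested.

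**Figure D2:**
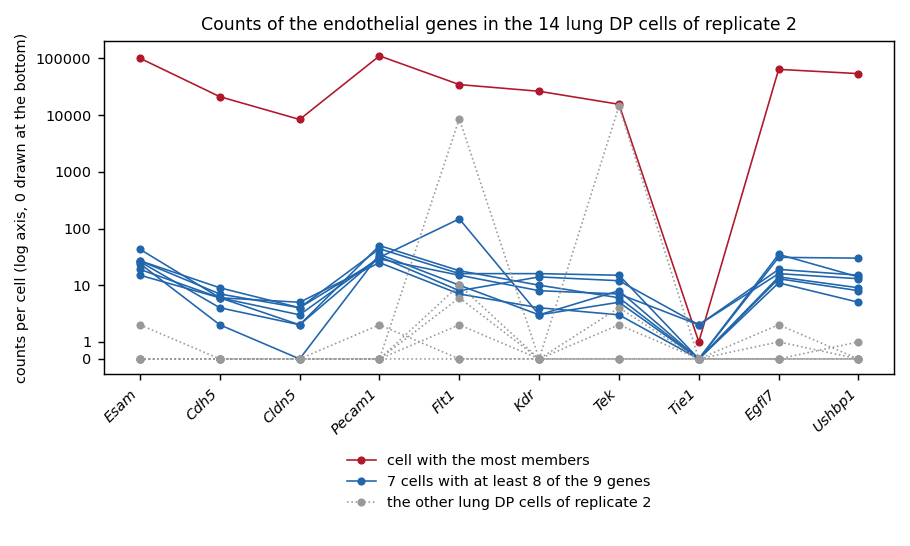
Counts of the 10 endothelial genes in each of the 14 lung DP cells of replicate 2 (log axis, 0 drawn at the bottom, lines join the genes of 1 cell). The red cell holds 8394 to 111076 counts of 9 genes, the 7 blue cells run below it at 0 to 148 counts, and 2 of the grey cells hold 1 gene each at high counts, Flt1 (8648) and Tek (14397).

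Among the adhesion genes, Esam, Cdh5 and Cldn5 reached 1 CPM in DP cells only, and Pecam1 did so in leukocytes too. For Esam, Cdh5 and Cldn5, 0 of 43 CTC and 0 of 46 WBC allow shares of up to 8.22% and 7.71%. Both limits lie above the DP shares of these genes, so a lower share in CTC or WBC is not shown. Esam (chr9:37528078-37538319, plus strand, GRCm38), which encodes an immunoglobulin-family protein of endothelial and platelet junctions, was at 1 CPM or more in 15 of 450 DP cells (3.33%, exact 95% binomial interval 1.88 to 5.44), and in no CTC, WBC or control cell. Without the 14 lung DP cells of replicate 2 it was 9 of 436 DP cells (2.06%). Its summed counts per sample ranged in DP from 0.000579 CPM (replicate 7) through a median of 1.34 to 169 CPM (replicate 2), against 0 CPM in 4 CTC samples and 0.00388 CPM in the other, and 0 counts in all 6 WBC samples. The 2 lowest DP values rest on 2 counts (replicate 6) and 1 count (replicate 7), a level that was not detectable at the depth of the WBC samples. Outside replicate 2 of lung, the highest Esam cells were a tumor-low lung cell of replicate 4 (427 CPM), a tumor-low lung cell of replicate 1 (209 CPM), a tumor-low blood cell of replicate 9 (122 CPM) and a tumor-high blood cell of replicate 3 (70.1 CPM). These 4 cells had 5, 3, 1 and 5 of the 26 other endothelial markers, against 19 in the cell with the most.

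Cdh5 (chr8:104101625-104144511, plus strand), the VE-cadherin gene, and Cldn5 (chr16:18776847-18778262, plus strand), the claudin-5 gene of tight junctions, were the most concentrated. Without the cell with the most, 198 counts of Cdh5 and 20 of Cldn5 were left in the other 449 DP cells. The next highest cells held 22.5 CPM of Cdh5, in a tumor-low blood cell of replicate 9, and 15.2 CPM of Cldn5, from 5 counts in a lung cell of replicate 2. Cldn5 had no count in any cell outside the lung DP cells of replicate 2. An antisense gene, Gm29682, overlaps Cdh5 on the opposite strand, and since the counting is not stated to use strand, reads of the pair cannot be told apart.

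Pecam1 (chr11:106654217-106750628, minus strand) was spread over leukocytes as well. It was at 1 CPM or more in 26 of 450 DP cells, in 6 of 28 blood WBC (21.4%, interval 8.30 to 41.0) and none of 18 lung WBC, in 1 of 43 CTC, and among the controls in 5 of 21 naive WBC (23.8%), 4 of 24 Duplike cells and none of the B16F10, CDP and PltLike cells. The highest values after that of the lung DP cell were in naive WBC, at 1742 and 1398 CPM.

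**Figure D3:**
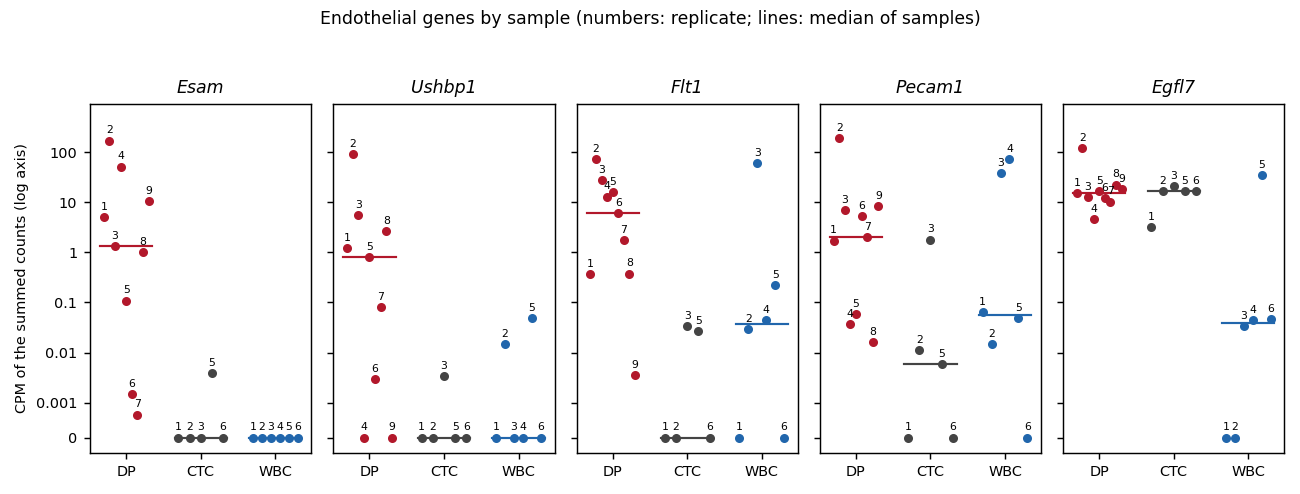
CPM of the summed counts of each sample (log axis, 0 drawn at the bottom) for 5 endothelial genes in DP (9 samples), CTC (5) and WBC (6), with the replicate number above each point and a line at the median of the samples. Replicate 2 is the highest DP sample for all 5 genes. Egfl7 lies at 4.61 to 119 CPM in DP and 3.14 to 20.9 CPM in CTC, which overlap, and Esam is at 0 in each WBC sample.

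Of the 4 receptor genes, Flt1 was the one read in many samples. Flt1 (chr5:147561604-147726011, minus strand) encodes VEGF receptor 1. It was at 1 CPM or more in 32 of 96 tumor-low lung DP cells (33.3%, interval 24.0 to 43.7), 7 of 81 tumor-high lung DP cells (8.64%, with 4 of the 7 from replicate 2), 2 of 73 tumor-low blood DP cells (2.74%) and 0 of 200 tumor-high blood DP cells, which allows a share of up to 1.5%. The 32 cells came from 6 of 7 samples, at 40.6% of the tumor-low lung cells in replicate 3, 40.0% in replicate 5, 37.5% in replicate 2, 33.3% in replicate 8, 26.7% in replicate 4 and 23.1% in replicate 7, and 0 of 5 such cells in replicate 1. WBC of lung had 2 of 18 cells with Flt1, 1 of them in replicate 3 at 330 CPM, and WBC of blood 0 of 28.

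The tumor-low lung DP cells with Flt1 carried macrophage genes, as did those without. The 8 macrophage genes, among them Csf1r and Lyz2, summed to a median of 51610 CPM in the 32 cells with Flt1 and 35850 CPM in the 64 without, and the cells with Flt1 had a median of 1 of the 26 other endothelial markers against 2 without. Within lung, the share of cells with Flt1 did not differ beyond its spread between the 2 kinds of DP over the 6 samples that held both: it averaged 29.1% ± 15.6 in tumor-low and 28.3% ± 30.5 in tumor-high cells (SD, n = 6 each), higher in 3 samples and lower in 3 (exact sign-flip permutation p = 0.938, adjusted over 2 such tests 0.938, smallest possible 0.0312). Tumor-high cells numbered only 2 to 6 in 4 of these samples. The highest Flt1 value of the series, 3134 CPM, was in a lung DP cell of replicate 2 whose melanocyte genes summed to 40.2 CPM and whose pan-leukocyte genes summed to 21.7 CPM; with both under 500 CPM, its place in the split is weak.

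Kdr (chr5:75932827-75978458, minus strand), the gene of VEGF receptor 2, was carried by 2 cells: the lung DP cell with the most endothelial genes (632 CPM) and a tumor-low blood DP cell of the same sample (978 CPM) that held none of the other 9 at 1 CPM. Every other cell was at 12.2 CPM or less. Tek (chr4:94739289-94874976, plus strand), which encodes the angiopoietin receptor TIE2, likewise came from 2 lung DP cells of replicate 2, at 953 and 372 CPM, and had no cell at 1 CPM outside that sample's lung DP cells. Tie1 (chr4:118471191-118490061, minus strand) was the exception to the pattern of replicate 2. Its highest values, 17.6 CPM and 4.55 CPM, were in tumor-high blood DP cells of replicates 9 and 1, and the remaining 4 cells above 1 CPM rested on 1 to 4 counts each.

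Egfl7 (chr2:26580014-26593120, plus strand), which encodes a secreted EGF-like protein of the vessel wall and hosts the microRNA gene Mir126a, was read mostly in cells with melanocyte genes. It was at 1 CPM or more in 8 of 169 tumor-low DP cells (4.73%), against 39 of 81 tumor-high DP cells of lung (48.1%) and 109 of 200 of blood (54.5%). It was at that level in 26 of 43 CTC (60.5%) and 2 of 46 WBC (4.35%). Among the controls it was read in 22 of 22 cultured B16F10 cells, 16 of 18 CDP, 19 of 24 Duplike, 16 of 24 PltLike and 3 of 21 naive WBC cells. The level pooled over cells was 17.3 CPM in tumor-high DP and 17.2 CPM in CTC, against 43.3 CPM in B16F10, 59.7 CPM in CDP, 21.5 CPM in Duplike and 18.4 CPM in PltLike. Each control is a single sample, and these differences were not tested. Egfl7 overlaps Agpat2 on the opposite strand, so a part of its counts could belong to that gene.

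The share of cells with Egfl7 was lower in tumor-low than in tumor-high DP in each of the 8 samples that held both. It averaged 3.98% ± 6.57 in tumor-low and 50.8% ± 7.69 in tumor-high cells (SD, n = 8 each; exact sign-flip permutation p = 0.00781, the smallest possible, adjusted over 2 such tests 0.0156). Tumor-low cells were also shallower, with a median of 7.39 Mcounts against 18.9 Mcounts. With each cell thinned to 1000000 counts and any count taken as detection, the shares were 9.18% ± 11.9 in tumor-low and 52.5% ± 11.3 in tumor-high cells (SD, n = 8 each; exact permutation p = 0.0156, adjusted 0.0312), lower in 7 samples, with replicate 2 at equal shares.

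**Figure D4:**
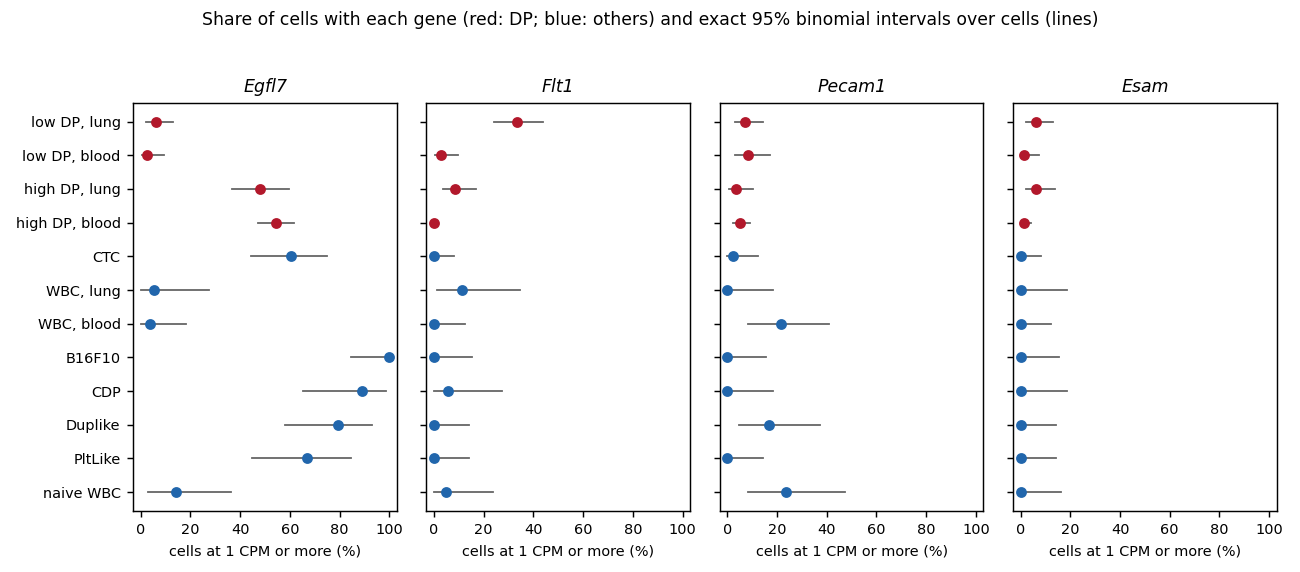
Share of cells at 1 CPM or more for Egfl7, Flt1, Pecam1 and Esam in each kind of cell (points, in percent) with exact 95% binomial intervals over cells, which cover counting error only. Egfl7 is at 48.1% to 100% in tumor-high DP, CTC and the tumor-type controls, Flt1 is highest in tumor-low lung DP (33.3%), and Esam is at 0 outside DP.

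Ushbp1 (chr8:71384272-71395802, minus strand), a gene named for a partner of the Usher syndrome protein harmonin, was concentrated much as Esam was. It was at 1 CPM or more in 12 DP cells of 6 samples, 1 CDP cell (29.2 CPM) and no CTC or WBC. Of the 12 DP cells, 6 lay outside the 14 lung DP cells of replicate 2 (6 of 436, 1.38%). After the first cell came a tumor-low lung cell of replicate 3 (317 CPM) and a tumor-high lung cell of replicate 8 (65.5 CPM), neither with another of the 10 genes at 1 CPM. Esam and Ushbp1 met in 6 cells, all of them lung DP cells of replicate 2.

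Between classes, summed counts per sample, tissue and class were compared with edgeR's quasi-likelihood test, with the sample as a block and p-values adjusted by Benjamini-Hochberg over every gene tested. Replicates 7, 8 and 9 held DP cells only, and replicate 4 held no CTC. With the sample as a block, the difference from WBC therefore rests on 6 samples and that from CTC on 5, whereas DP means and ranges cover 9. Of the 10 genes 5 passed the filter on low counts, Esam, Ushbp1, Flt1, Pecam1 and Egfl7, and a gene high only in DP passed through DP. DP against WBC gave 2 of these 5 as higher and 0 as lower, where 17.6% of the 12595 genes tested were higher. These 2, Esam and Ushbp1, had 0 and 3 pooled counts in WBC and did not pass the filter through WBC. Their calls could hardly go the other way, so 2 of 5 is not comparable with 17.6%. Esam was higher in DP (at least 1922-fold in pooled CPM, against a floor of 3 counts over all WBC, edgeR adjusted p = 0.00777). Ushbp1 was higher by 10.50 ± 2.83 on the log2 scale (SE, edgeR adjusted p = 0.0118). It had 61272 pooled counts (8.37 CPM) in DP against 3 (0.00862 CPM) in WBC. Without the cell with the most genes both remained higher, Esam by at least 325-fold (adjusted p = 0.0148) and Ushbp1 by 7.01 ± 2.25 (adjusted p = 0.0293), and without replicate 2 Ushbp1 lost its call (adjusted p = 0.0716), as it did without replicate 3 (adjusted p = 0.0729). Without replicate 7 or 8 Ushbp1 no longer passed the filter. With sums of at least 5 cells in place of 2, both lost their call (edgeR adjusted p = 0.141 for Esam and 0.233 for Ushbp1), and neither passed the filter in blood alone or with each cell thinned to 500000 counts.

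Egfl7, Flt1 and Pecam1 did not pass the threshold between DP and WBC. Egfl7 averaged 25.7 ± 35.5 CPM over 9 DP samples and 5.82 ± 14.2 CPM over 6 WBC samples (SD), and its log2 difference was 6.52 ± 2.43 (SE, edgeR adjusted p = 0.0580). A single lung WBC of replicate 5, tumor-high by the split, gave 1436 of the 1444 WBC counts of Egfl7, and without that sample the difference passed (9.83 ± 2.24, edgeR adjusted p = 0.0112). It also passed with DESeq2 (adjusted p = 2.22e-06) and in blood alone (9.27 ± 1.60, edgeR adjusted p = 0.00142). Flt1 (4.04 ± 2.53, edgeR adjusted p = 0.281) and Pecam1 (3.73 ± 2.997, edgeR adjusted p = 0.418) had wide errors, and 1 lung WBC of replicate 3 gave most of the WBC counts of Flt1. Pooled over cells, both genes were lower in DP. Flt1 was at 12.4 CPM in DP and 20.7 in WBC, and Pecam1 at 18.7 and 22.5 CPM. Without the cell with the most genes, DP held 7.73 CPM of Flt1 and 3.56 CPM of Pecam1.

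DP against CTC, which shares the DP samples with the comparison above, gave 3 of the same 5 genes as higher, where 5.85% of all genes tested were higher. Esam had 121276 pooled counts (16.6 CPM) in DP and 2 (0.00174 CPM) in CTC (edgeR adjusted p = 0.0266). Ushbp1 had 61272 (8.37 CPM) and 1 (0.000871 CPM, edgeR adjusted p = 0.0241). Flt1, higher by 9.43 ± 2.58 on the log2 scale (SE, edgeR adjusted p = 0.0260), had 90841 (12.4 CPM) and 24 (0.0209 CPM). With so few CTC counts, these 3 did not pass the filter on low counts through CTC, so 3 of 5 is not comparable with 5.85%. Egfl7 differed by 0.84 ± 1.70 (SE, edgeR adjusted p = 1), and DP and CTC samples overlapped. The 3 calls were fragile. Esam lost its call without the cell with the most genes (edgeR adjusted p = 0.0845), and all 3 lost it when replicate 1, 2 or 5 was left out and with sums of at least 5 cells (edgeR adjusted p of 0.319 to 0.459). Esam and Ushbp1 also lost it without replicate 3, and Flt1 without replicate 6.

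Within DP, few of these genes passed between tissues or between kinds of cell. DP of lung against DP of blood gave 0 of 6 genes tested, where 0.0163% of 12282 genes were called, 2 in all, with 988 genes and 2 of the 6, Flt1 and Kdr, at an unadjusted p under 0.05. Flt1 had a log2 difference of 12.40 ± 1.57 (SE, edgeR adjusted p = 0.110). The fit used only samples with DP cells of both tissues, replicates 1, 2, 3, 5 and 7. In these, Flt1 ran from 3.63 to 202 CPM in lung and from 0.00485 to 0.00862 CPM in blood. Over all 7 lung samples the range was 0.375 to 202 CPM (median 12.95). Over all 7 blood samples Flt1 was at 0.00354 to 5.98 CPM (median 0.00565). It passed with no filter on low counts (edgeR adjusted p = 0.0321), with no replicate block (0.0165), without replicate 7 (0.0137) and with DESeq2 (adjusted p = 6.29e-33), and DESeq2, which called 2367 genes, also called Kdr and Ushbp1. Among tumor-low DP cells alone, the share of cells with Flt1 was 33.3% in lung and 2.74% in blood.

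Tumor-low against tumor-high DP tested Egfl7 alone of the 10. It was lower in tumor-low DP, with a log2 difference of -5.78 ± 2.01 (SE, edgeR adjusted p = 0.0433), where 11% of 10983 genes were lower and 8.42% higher. Without the cell with the most genes, which is tumor-low and holds 1537 CPM of Egfl7, the difference was -5.67 ± 1.53 (edgeR adjusted p = 0.00786). With no replicate block it was -1.69 ± 3.37 (edgeR adjusted p = 0.807), and leaving out replicate 1, 3, 6, 7, 8 or 9 ended the call (edgeR adjusted p of 0.0793 to 0.170). Tumor-low DP against WBC tested Flt1 (4.31 ± 3.81, edgeR adjusted p = 0.852) and Pecam1 (9.23 ± 4.55, edgeR adjusted p = 0.660). Neither passed, as 0% of 9813 genes did with edgeR, 745 of them at an unadjusted p under 0.05. DESeq2 called 1702 genes, Flt1 and Pecam1 among them. Pooled over cells, Pecam1 was at 75.9 CPM in tumor-low DP and 22.5 CPM in WBC. Without the cell with the most genes it was at 7.38 CPM in tumor-low DP. Flt1 was at 50.5 CPM in tumor-low DP, 29.9 CPM without that cell, and 20.7 CPM in WBC.

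Platelet-restricted genes were read together mostly in blood DP cells. A cell was called platelet-positive when at least 3 of 10 platelet-restricted genes, such as Ppbp, Gp9, Itga2b and Tubb1, reached 1 CPM. This held for 21 DP cells, all of blood and 20 of them tumor-high, from replicates 1, 2, 3, 5, 7 and 9, and for 3 Duplike cells, but for 0 of 24 PltLike cells, 0 of 43 CTC and 0 of 46 WBC. The 6 cells with at least 3 endothelial genes were lung DP cells, and 0 of the 177 lung DP cells were platelet-positive, so 0 of these 6 follows from their tissue. At least 1 platelet gene was at 1 CPM in 2 of the 6, in 9 of 177 lung DP cells (5.08%) and in 82 of 273 blood DP cells (30.04%). So it was in 8 of 22 cultured B16F10 cells (36.4%), 7 of 18 CDP, 8 of 24 Duplike and 2 of 24 PltLike cells. It was in 1 of 43 CTC, 3 of 46 WBC and 1 of 21 naive WBC. In B16F10, 7 cells had Itga2b, so a single such gene does not mark platelet material. Esam, a gene of platelets as well, was at 1 CPM in 1 of 21 platelet-positive DP cells (4.76%, interval 0.120 to 23.8) and 14 of 429 platelet-negative ones (3.26%, interval 1.80 to 5.41).

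Gene by gene, platelet-positive DP cells held 9 of 21 with Egfl7, 2 with Tie1, 1 each with Esam, Ushbp1 and Pecam1 and 0 with Flt1, Kdr, Cdh5, Tek or Cldn5. The 2 highest Tie1 cells of the series, with 5 and 4 platelet genes, were both among them. Any of the 9 genes besides Egfl7 was at 1 CPM in 4 of 21 platelet-positive (19.0%, interval 5.45 to 41.9) and 78 of 429 platelet-negative DP cells (18.2%, interval 14.6 to 22.2). Among tumor-high blood cells the counts were 4 of 20 (20%, interval 5.73 to 43.7) and 12 of 180 (6.67%, interval 3.49 to 11.4). These intervals are over cells, and the difference was not tested over samples. In the fit over samples 0 of 6 genes tested passed, where 0% of 13306 genes did with edgeR, 699 at an unadjusted p under 0.05 and none of the 6 among them. DESeq2 called 1403 genes and none of the 6. Platelet-positive sums came from replicates 1, 3, 5 and 9 only, since replicates 2 and 7 held 1 such cell each. The platelet-negative side included 168 tumor-low cells, so platelet state and kind of cell were mixed in this fit. Within tumor-high blood cells alone, 3 of the endothelial genes were tested and 0 of 12192 genes passed with edgeR.

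**Figure D5:**
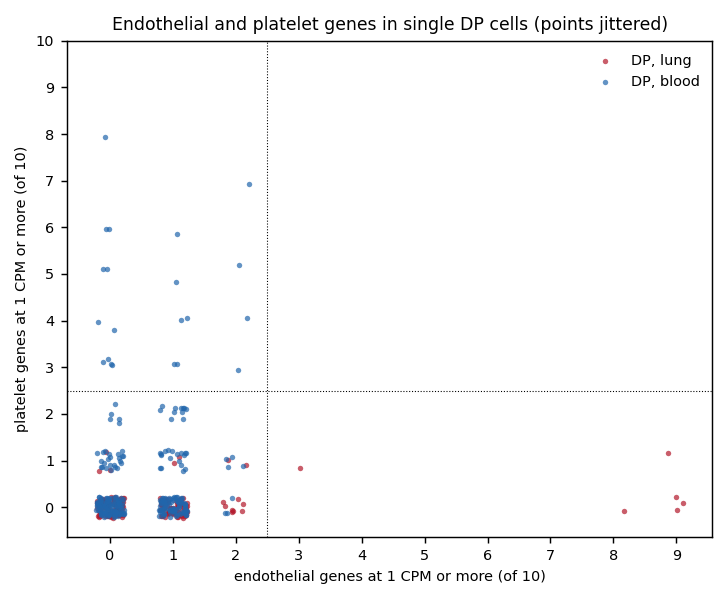
Number of the 10 endothelial genes (horizontal) and of the 10 platelet-restricted genes (vertical) at 1 CPM or more in each of 450 DP cells, jittered for display, with dotted lines below 3 genes. The 21 platelet-positive cells, all of blood, hold 0 to 2 endothelial genes, and the 6 cells with 3 or more endothelial genes, all of lung, hold 0 or 1 platelet gene.

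The wider endothelial list moved in both directions, and it was also read in cells of other kinds. At least 3 of its 26 markers reached 1 CPM in all 22 cultured B16F10 cells and all 18 CDP cells. The same held for 303 of 450 DP cells and 25 of 46 WBC. Of 26 other endothelial markers, 15 were tested between DP and WBC, with 6 higher and 2 lower in DP, where 17.6% of all genes tested were higher and 2.91% lower, and a median log2 difference of 3.68, against 1.17 over all genes tested. Without the cell with the most genes 3 of the 15 were higher, Plvap, Ramp2 and Vwf, and 2 lower. Plvap (8.10 ± 2.13), Ramp2 (8.09 ± 1.57), Nos3 (7.71 ± 2.40) and Vwf (6.33 ± 1.70) rose, with edgeR adjusted p of 0.00128 to 0.0250. Icam2 (-5.38 ± 1.82, edgeR adjusted p = 0.0366) and S1pr1 (-3.96 ± 1.10, edgeR adjusted p = 0.0130), adhesion and sphingolipid receptor genes that leukocytes use too, fell and are named as the only ones that did. Between DP and CTC 2 of the 15 rose, where 5.85% of all genes tested did, Cd34 (10.50 ± 2.56, edgeR adjusted p = 0.0116) and S1pr1 (7.90 ± 1.65, edgeR adjusted p = 0.00332). Between tumor-low and tumor-high DP 12 were tested, with 3 higher, among them Lyve1 (10.62 ± 2.26, edgeR adjusted p = 0.00128) and S1pr1 (5.87 ± 1.32, edgeR adjusted p = 0.00216), and 5 lower, among them Prox1 (-6.47 ± 1.49, edgeR adjusted p = 0.00264) and Ramp2 (-7.05 ± 2.43, edgeR adjusted p = 0.0415). Of all genes tested 8.42% were higher and 11% lower, and the median of the 12 was -2.10, against -0.53 over all genes tested. None of this list passed in the other 3 comparisons.

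The ligands and co-receptors of these receptors were also read. Of 11 VEGF and angiopoietin genes, 8 were tested between DP and WBC and 4 rose, against 17.6% of all genes tested: Vegfc (7.67 ± 1.83), Angpt2 (7.02 ± 1.26), Vegfb (4.65 ± 1.10) and the co-receptor gene Nrp2 (4.02 ± 1.15), with edgeR adjusted p of 0.000660 to 0.0155. None of the 8 passed between DP and CTC. In tumor-low against tumor-high DP 2 of the 8 fell and 2 rose, against 11% and 8.42% of all genes tested. Vegfc (-8.79 ± 2.32, edgeR adjusted p = 0.00781) and Angpt2 (-7.16 ± 1.57, edgeR adjusted p = 0.00173) fell, and Angptl4 (6.83 ± 2.01, edgeR adjusted p = 0.0163) and Nrp1 (2.17 ± 0.63, edgeR adjusted p = 0.0155) rose.

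Over the 539 cells of tumor-bearing samples, the genes most like Esam in log2(CPM + 1) were Cd34 (Pearson r = 0.63), Cavin3 (0.57), Ehd2 (0.54), Igfbp7 (0.53) and Fbn1 (0.52). Without the 14 lung DP cells of replicate 2 the 5 highest were others, Smpd3, Krt8, Cd248, Tmem98 and Tmem151a (0.51 to 0.57). For Cdh5 the 5 highest were Mtmr11, Tmem88, Myo1d, Cd34 and Fbn1 (0.40 to 0.48), and none of them was among the 5 highest (0.29 to 0.38) without these cells. Pecam1 kept Trp53i11, Ptprcap and Serpina3g in its 5 highest in both (0.46 to 0.58 with all cells, 0.52 to 0.53 for these 3 without the 14). These values describe sparse counts of cells that share samples and differ in depth, over 11843 genes at 1 CPM in at least 20 cells.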

How the data were processed

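The authors deposited a table of raw counts per gene and cell, which was used as deposited. The submitters' processing notes name Trim Galore, HISAT2, SAMtools, featureCounts, BWA, Picard and the mm10 build, while versions, settings and strand use are not stated there. The 10 genes and all gene lists were chosen with earlier results of these data known.

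CPM per cell used the cell's total over all 21138 genes, and 1 CPM counted as detection. Totals per sample ran from 26.6 to 1728 Mcounts. Intervals and floors (3 counts or cells) cover counting error only, since Smart-seq2 reads carry no molecular identifiers. For each sample, the counts of a class in a tissue were added up (2 cells or more) and tested with edgeR 4.0.16 in R 4.3.3 (TMM, filterByExpr, quasi-likelihood test, Benjamini-Hochberg adjustment, threshold 0.05), with tissue and the sample as a replicate block. A log2 fold change depends on edgeR's prior count where a class has no counts. The SE of an edgeR difference is its absolute size divided by the square root of the test's F statistic, so it restates the test. DESeq2 1.42.0 was an alternative. The block was used because the sums of 1 sample come from the same sample. Deviations of same-sample sums had a median correlation of 0.0523 (41 pairs), against -0.0183 between samples (246 pairs). Shares of cells were compared with exact sign-flip permutation tests over samples in SciPy 1.17.1, 2-sided. Doublets were not called, and no cell was filtered out. No cell name was shared between samples. Named genes were all 10, the 5 genes most like Esam, Pecam1 and Cdh5, and up to 4 per list by size of change. Coordinates come from GENCODE on GRCm38, which is mm10. The fits were also run on simulated counts, and the outcome is not given here. Alternatives covered scaling, filters, the block, thinning, minimum cells per sum, tissue and leaving out each replicate. Results that rest on certain single marker genes are not reported here.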

Additional observations from a re-analysis of the deposited data

Results flagged for a closer look

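By the gap to its nearest neighbour relative to its class's range, a sample stood apart in 14 of 17 sets of gene and class tested. The limits used are meant to give about 1 in 20 by chance. That rate does not apply to sparse counts, where 1 cell of 1 sample can fill most of the range. In DP, replicate 2 was the sample for 9 genes, as CPM of the summed counts: Esam (169, next 51.0), Cdh5 (35.3, next 0.262), Cldn5 (13.98, next 0), Pecam1 (192, next 8.45), Flt1 (72.3, next 27.2), Kdr (47.9, next 0.155), Tek (49.9, next 0.00672), Egfl7 (119, next 22.3) and Ushbp1 (89.97, next 5.42). These 9 are not independent, since 1 lung cell holds over 50% of that sample's DP counts of each. For Tie1 it was replicate 9 (0.922, next 0.145). In WBC, replicate 5 stood apart for Egfl7 (34.8, next 0.0464) and replicate 3 for Flt1 (59.8, next 0.218). In CTC, replicate 3 was high for Pecam1 (1.80, next 0.0110) and replicate 1 low for Egfl7 (3.14, next 16.6). Their causes were not tested.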

How the results depend on the processing

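Of 376 values of single genes under alternatives, 336 kept their direction and side of the threshold, 28 lost a call, 12 gained one and 0 reversed; a sign change of a value that was not called does not count as a reversal. Scaling with DESeq2's size factors in edgeR put the median of all genes between DP and WBC at 0.95, against 1.17 with TMM. DESeq2 called more genes in every comparison: 5276 for DP against WBC, 1468 for DP against CTC, 2367 for lung against blood (3 of the endothelial genes), 4591 for tumor-low against tumor-high DP, 1702 for tumor-low DP against WBC (2 of them) and 1403 for platelet-positive against platelet-negative DP. Sums of at least 5 cells gave 294 genes for DP against WBC and 160 for DP against CTC, with 0 of the endothelial genes in either or in tumor-low against tumor-high DP. In blood only, DP against WBC called 1 of them, DP against CTC 336 genes and 0 of them, and the platelet comparison 5 genes. Cells thinned to 500000 counts gave 0 of them against WBC, 1 against CTC, and 1 gene for tumor-low DP against WBC. With no filter, lung against blood gave 9 genes (1 of them), tumor-low DP against WBC 15 and the platelet comparison 32. The cause of these shifts was not tested.

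With no replicate block, lung against blood gave 5 genes (1 of them, Flt1), the platelet comparison 82, and tumor-low against tumor-high DP 0 of them (Egfl7 lost). Without the pairing by sample no other call among these genes changed.

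Leaving out 1 replicate at a time gave 1599 to 2580 genes for DP against WBC (1 to 3 of the endothelial genes), 361 to 725 for DP against CTC (0 to 3), 0 to 178 for lung against blood (0 to 1), 1320 to 2244 for tumor-low against tumor-high DP (0 to 1), 0 to 1 for tumor-low DP against WBC and 0 to 42 for the platelet comparison. The highest counts for lung against blood and for the platelet comparison, and the lowest for tumor-low against tumor-high DP, came without replicate 7, the lowest for WBC without replicate 5 and the lowest for CTC without replicate 3. The share of DP cells with any of the 10 genes was 48.7% at 1 CPM, 40.2% at 10 CPM, 76.7% at any count and 54.0% at any count after thinning to 1000000 counts. Cells with at least 3 genes numbered 6, and 0 without the lung DP cells of replicate 2. A platelet comparison within tumor-low DP could not be made, with 1 platelet-positive cell. Shallow cells limit detection: 1 count exceeds 1 CPM in any cell under 1 Mcount.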
